A study of Danio rerio with 10 samples.

Results

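The genes described are the zebrafish nuclear genes of the mitochondrial respiratory chain and of ATP synthase, chosen by symbol alone: every gene whose name begins with nduf, sdha to sdhd, uqcr, cyc1, cox4 to cox8 or atp5. The rule found 87 genes of the 17373 in the induced torpor table, of which 56 have a one-to-one human orthologue and 31 are other copies. The one-to-one genes are listed in all 3 deposited comparisons with the control, and the other copies only in induced torpor versus control. By complex there were 36 subunits of complex I, 5 of complex II, 8 of complex III, 15 of complex IV and 12 of complex V, beside 10 assembly factors and cox7a2l, whose human counterpart links complexes III and IV in supercomplexes.

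RNA from the dorsal muscle of 10 adult AB zebrafish was sequenced after poly A capture, and the dissected region is described as made mainly of fast twitch fibres. The control group (2 fish) and the radiation group (3 fish) were kept at 28.5 °C, whereas the induced torpor group (2 fish) and the induced torpor+radiation group (3 fish) were acclimated to 18.5 °C and given 24 µM melatonin in the water for 10 days. Both irradiated groups are labelled with a whole-body dose of 32.64 cGy, given under tricaine anaesthesia. None of the sequenced groups had cold alone or melatonin alone, so the contributions of temperature and of melatonin to the induced torpor values cannot be told apart. Fish are coded with an F in the control (2 fish) and radiation (3 fish) groups, with an M in the induced torpor group (2 fish), and with both letters in induced torpor+radiation (2 M, 1 F). What the letters stand for is not explained, and between induced torpor and control the letter and the treatment cannot be told apart. Induced torpor+radiation is also unbalanced for the letter against control, radiation and induced torpor.

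The respiratory chain passes electrons from NADH through complex I, or from succinate through complex II, to ubiquinone, then through complex III to cytochrome c and through complex IV to oxygen. Complexes I, III and IV pump protons out of the mitochondrial matrix, and complex V, ATP synthase, lets them return through a rotating ring and makes ATP. Most subunits are nuclear genes, a small number are encoded in the mitochondrial genome, and assembly factors build the complexes without staying in them. Slow, oxidative muscle fibres are rich in these proteins and fast, glycolytic fibres have fewer.

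The files hold no value per fish. Each gene has a mean over all 10 fish of its normalized count (baseMean), a log2 fold change over control, its standard error (SE) and a Wald p from the authors' DESeq2 fit, so replicates could not be compared with each other and the depth of each library is unknown here. For one-to-one genes the mean of each group was recovered from these columns. The members were well covered, with a median baseMean of 1228 normalized counts against 64.1 over all genes tested, and 84 of the 87 had an adjusted p. Of the remaining 3, ndufs1 and ndufa4l2b are listed at 0 and sdhda had a baseMean of 5.48. Over members with a baseMean of at least 10 the median SE was 0.32 on the log2 scale, against 0.48 over all such genes. Of 7 fast fibre markers in the induced torpor table, 5 had a baseMean between 9792 (tnni2a.4) and 162000 (tnnt3b), whereas mylpfb was at 0.445 and tnnt3a at 4.59. The cardiac genes myl7 and nppa are listed at 0. One protocol label names liver, where the tissue label names muscle, and the 3 liver markers in the table had a baseMean of 0.975 (serpina1), 14.2 (apoa1a) and 33.1 (tfa). The tfa gene, which encodes transferrin, averaged 11.6 normalized counts in control, 45.3 in radiation, 48.5 in induced torpor and 24.9 in induced torpor+radiation. Its values over control were 2.06 ± 0.96 in induced torpor (adjusted p = 0.19) and 1.96 ± 0.89 in radiation (adjusted p = 0.63), not called, and their part in the results was not tested. Markers of oocytes stood apart in the control: the 4 of 6 with group means summed to 385 normalized counts in control, 14.9 in radiation, 10.7 in induced torpor and 6.03 in induced torpor+radiation. All 3 comparisons with the control share its 2 fish. In muscle RNA, fewer cells of a type and less RNA per cell cannot be told apart.

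Induced torpor versus control asked what cold with melatonin did to the muscle. Of the 84 members tested, 15 were higher in induced torpor and 1 was lower at an adjusted p of 0.1. Over all 11529 genes tested, 6.14% were called higher and 4.82% lower. Since the members are well covered, the share among genes with a baseMean of at least 50 is also given: 9.55% of these were called higher, against 14 of 80 members. The median log2 fold change was 0.46 over members with a baseMean of at least 10, and 70 of these 84 were above 0. Over all genes with that baseMean the median was −0.0044 and 5199 of 10455 were above 0. The largest increases past the threshold were of cox6a1, cox8a and cox7a2a of complex IV, atp5mc3a of complex V, ndufb2 of complex I and the assembly factors sdhaf4 and ndufaf2, and the single decrease was of ndufa4. When the Wald statistics were read against a t distribution with 6 degrees of freedom, no member passed (smallest adjusted p 0.27, with 17 members at an unadjusted p under 0.05), nor did any gene in the table. When fold changes were centred on the median gene, 9 members were higher, since cox4i1, cox5aa, cox6b2, sdhc, ndufb9 and ndufab1b no longer passed, and at an adjusted p of 0.05 there were 6.

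**Figure D1:**
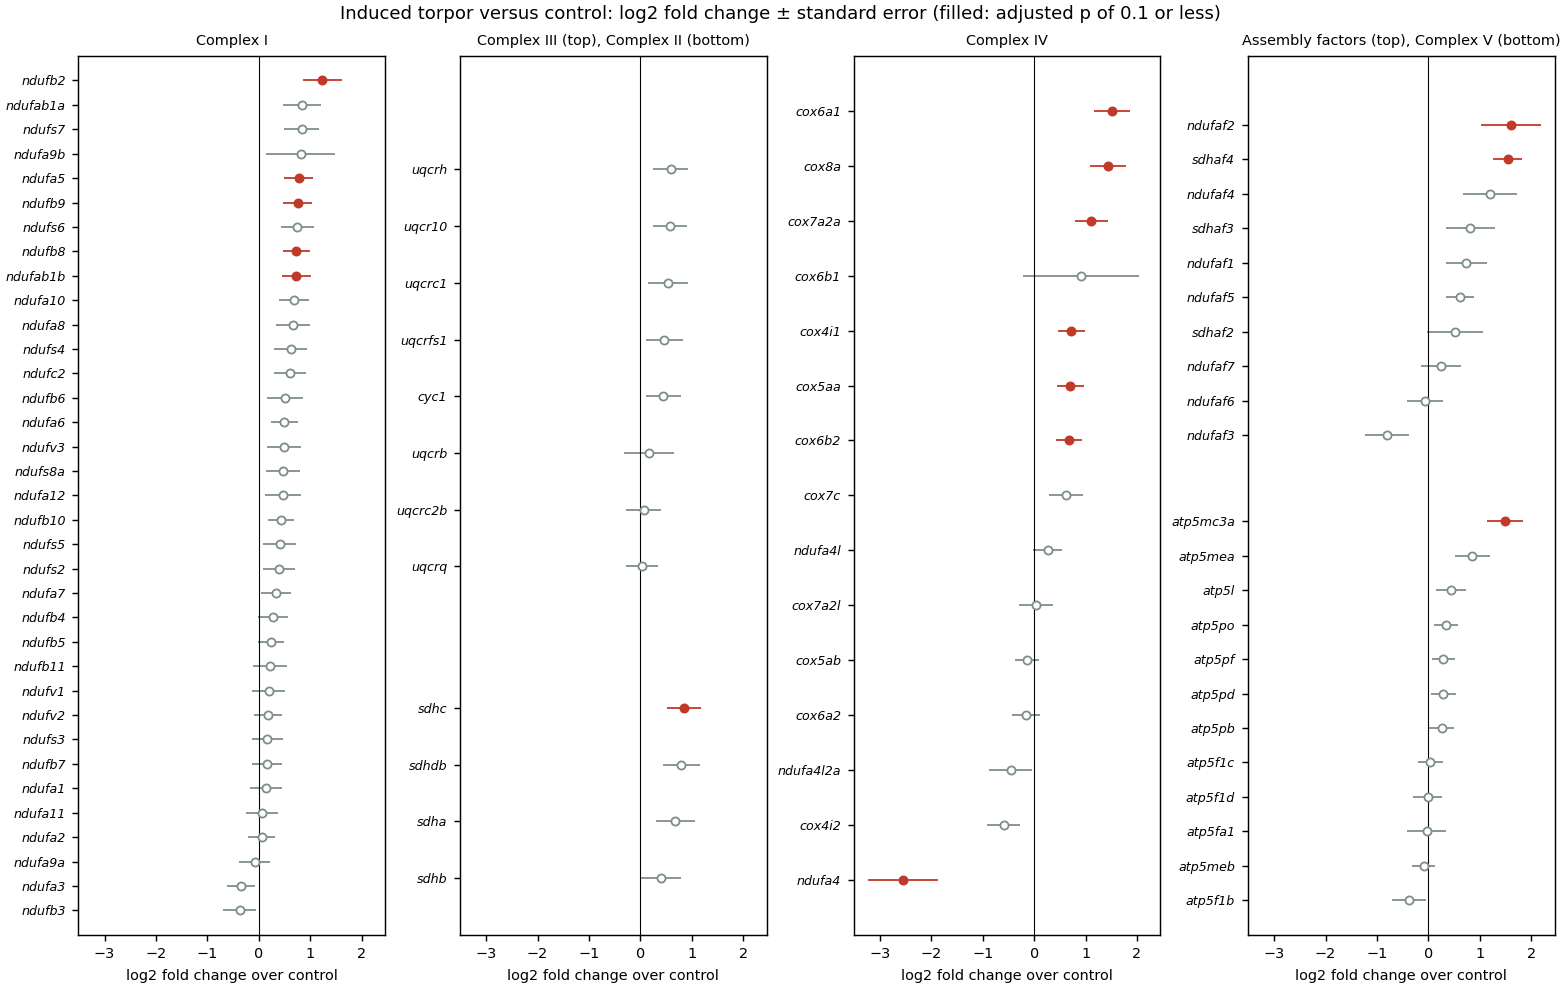
Log2 fold change of each of the 84 tested members in induced torpor over control (x axis), with bars of 1 standard error, by complex; filled red points had an adjusted p of 0.1 or less. Most points lie right of 0 in every panel, the 4 subunits of the F1 part of ATP synthase (atp5f1b, atp5f1c, atp5f1d, atp5fa1) lie at or left of it, and ndufa4 stands alone at −2.56.

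Complex IV, cytochrome c oxidase, had the most subunits called: 6 of 14 tested were higher and 1 was lower, with a median log2 fold change of 0.65. The shares over all genes tested were 6.14% higher and 4.82% lower, with 9.55% higher among genes with a baseMean of at least 50. Centred on the median gene, cox6a1, cox7a2a and cox8a still passed, as did ndufb2, ndufb8 and ndufa5 of complex I. Of the 6, cox4i1 alone is one-to-one, so the others could be read in this comparison only. The cox4i1 gene encodes the largest nuclear subunit of the complex, and it was one of the genes chosen for RT-qPCR. By that assay the paper reports an increase in induced torpor over control that was not significant. The assay was judged by a t-test and the sequencing by an adjusted p of 0.1, so the outcomes do not share a threshold. The primer pair designed for cox4i1 is shown because it names the transcript that was assayed, each 20 bases long.
cox4i1 forward: cggagacgctagaatgttgg
cox4i1 reverse: cggtcaaagtatgcagggag
In the sequencing, cox4i1 averaged 7505 normalized counts in control, 8960 in radiation, 12370 in induced torpor and 12380 in induced torpor+radiation. Both groups in torpor were thus above both groups at 28.5 °C. Its increase in induced torpor was 0.72 ± 0.27 (log2 fold change ± SE, adjusted p = 0.0755). Its isoform cox4i2, known in mammals as the lung form and as responsive to low oxygen, averaged 207.8 normalized counts in control, 164.7 in radiation, 137.4 in induced torpor and 149.7 in induced torpor+radiation. The cox4i2 value in induced torpor was −0.60 ± 0.32 and did not pass (adjusted p = 0.28).

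Other subunits of complex IV with several copies were also called in 1 copy and not in the other. The cox5aa gene rose by 0.70 ± 0.27 (adjusted p = 0.0872), whereas cox5ab, the other copy of human COX5A, was at −0.14 ± 0.23 (adjusted p = 0.80). The cox6a1 gene, which the tables pair with human COX6A2, the heart and skeletal muscle isoform in mammals, rose by 1.51 ± 0.36 (adjusted p = 0.00128). Its relative cox6a2, paired with human COX6A1, was at −0.15 ± 0.27 (adjusted p = 0.82). Counted reads, which are not divided by transcript length, gave a baseMean of 229 for cox6a1 and 4343 for cox6a2. By these assignments the zebrafish symbols of this pair cross those of the human genes. The assignment of cox6a1 is not one-to-one, and which of the 2 is the muscle form was not tested. The cox6b2 gene rose by 0.67 ± 0.25 (adjusted p = 0.0741), and cox6b1, assigned to the same human gene, was at 0.91 with a wide SE of 1.12. The cox7a2a gene rose by 1.11 ± 0.32 (adjusted p = 0.0146). Another gene named COX7A2, which is outside the name rule, was at −0.04 ± 0.46. The cox8a gene, with 1 named copy in these tables, rose by 1.43 ± 0.35 (adjusted p = 0.00193). Its human counterpart encodes one of the smallest subunits of the oxidase. Centred on the median gene, cox4i1 (adjusted p = 0.11), cox5aa (adjusted p = 0.13) and cox6b2 (adjusted p = 0.11) no longer passed, whereas cox6a1, cox7a2a and cox8a did.

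The ndufa4 gene was named as a subunit of complex I, and its product was later found in complex IV. The human gene has 2 zebrafish copies in the tables, ndufa4 and ndufa4l, and its relative NDUFA4L2 has 2 more, of which ndufa4l2b is listed at 0. The ndufa4 gene fell by 2.56 on the log2 scale (SE 0.68, adjusted p = 0.00623), to 0.170 of the control level, at a baseMean of 42.8 normalized counts. The other copy, ndufa4l, with a baseMean of 8062, was at 0.26 ± 0.28 (adjusted p = 0.67). The ndufa4l2a copy was at −0.46 ± 0.42 (adjusted p = 0.59). So the 1 member that fell was a copy with few reads, and the copy with most reads did not pass. ndufa4 is listed in 1 comparison only, so its level in each group could not be recovered.

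Copies of the same human gene occurred in complexes I, II and V too. For NDUFAB1, the mitochondrial acyl carrier protein, ndufab1b rose by 0.73 ± 0.29 (adjusted p = 0.0981) and ndufab1a was at 0.84 ± 0.38 (adjusted p = 0.17). For NDUFA9, ndufa9a was at −0.08 ± 0.30 and ndufa9b, with fewer reads, at 0.81 ± 0.67, neither of which passed. For ATP5ME, a small membrane subunit of ATP synthase, atp5mea was at 0.85 ± 0.34 (adjusted p = 0.10, just above the threshold) and atp5meb at −0.10 ± 0.23 (adjusted p = 0.88). For SDHD, an anchor of complex II, sdhdb was at 0.79 ± 0.36 (adjusted p = 0.17) and sdhda was too low for an adjusted p, at −0.34 ± 1.07. The difference between copies was not tested, since the tables hold no covariance between genes. How reads that match several copies were counted is not given in the sources used here, so values of close copies are uncertain.

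**Figure D2:**
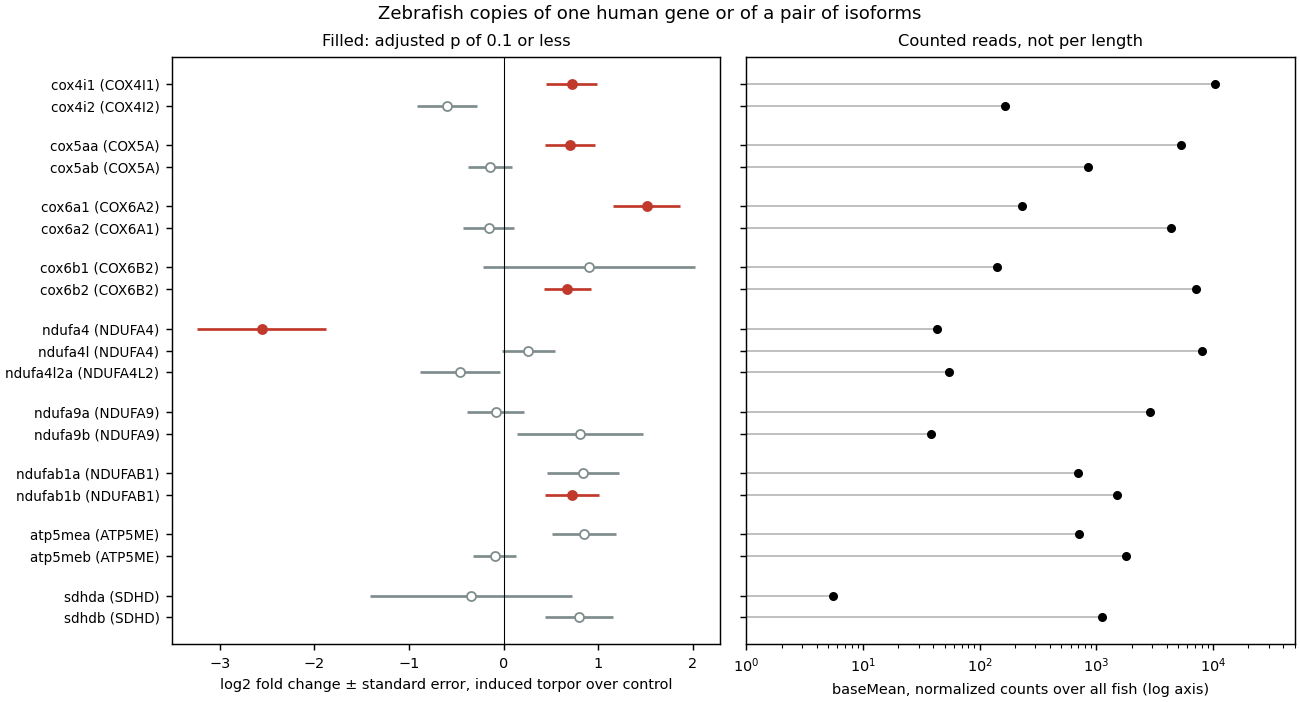
Left, log2 fold change ± standard error in induced torpor over control for zebrafish copies of one human gene or pair of isoforms (human gene in brackets; filled, adjusted p of 0.1 or less); right, baseMean in normalized counts on a log axis. In 4 of the complex IV sets 1 copy is filled on the right side of 0 and the other is open, though cox4i1, cox5aa and cox6b2 did not pass once fold changes were centred on the median gene. ndufa4, at −2.56 and a baseMean of 42.8, is far left of ndufa4l, which has more reads.

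In complex I, the NADH dehydrogenase, 5 of 35 subunits tested were higher and none was lower, with a median of 0.47. Called higher were 6.14% of all genes tested and 9.55% of those with a baseMean of at least 50. All 5 subunits called were accessory subunits, which surround the catalytic core. They were ndufb2 (1.23 ± 0.38, adjusted p = 0.0240), ndufb8, ndufa5, ndufb9 and ndufab1b. With fold changes centred on the median gene, ndufb9 and ndufab1b no longer passed. The 6 nuclear core subunits tested ranged from 0.16 for ndufs3 to 0.83 for ndufs7 (adjusted p = 0.13), with a median of 0.29 and none called. Among them are subunits with the flavin and with iron-sulphur centres, but ndufs1, another core subunit, is listed at 0. Core subunits encoded in the mitochondrial genome are outside the name rule. Of these, mt-nd1 (1.79 ± 0.36, adjusted p = 6.65e-05), mt-nd2 and mt-nd6 were called higher, and mt-nd3, mt-nd4 and mt-nd5 were not called. The median of the 29 accessory subunits was 0.49. The difference between core and accessory subunits was not tested. The ndufa5 gene, a subunit of the arm that reaches into the matrix, averaged 792 normalized counts in control, 897 in radiation, 1351 in induced torpor and 1475 in induced torpor+radiation. Both groups in torpor were above both others, and its increase in induced torpor was 0.77 ± 0.28 (adjusted p = 0.0641). The ndufb9 gene followed the same order of groups, with 508.5, 626, 855.5 and 879 normalized counts, and an increase of 0.75 ± 0.28 (adjusted p = 0.0821). The ndufb8 gene, a subunit of the membrane arm often used as a marker of complex I, rose by 0.73 ± 0.26 (adjusted p = 0.0555). The lowest complex I value was that of ndufb3, −0.38 ± 0.31 (adjusted p = 0.55).

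Complex II, succinate dehydrogenase, had 4 subunits tested, and all 4 values were above 0, with a median of 0.74. The membrane anchor sdhc averaged 717 normalized counts in control, 851 in radiation, 1287 in induced torpor and 1256 in induced torpor+radiation. It was the complex II subunit called, with an increase of 0.84 ± 0.33 (adjusted p = 0.0937), where 6.14% of all genes tested were called higher. Centred on the median gene it did not pass, with an adjusted p of 0.13 in induced torpor and 0.15 in induced torpor+radiation. The catalytic subunits sdha, which binds the flavin, and sdhb, which carries the iron-sulphur centres, were at 0.68 ± 0.38 (adjusted p = 0.31) and 0.39 ± 0.39 (adjusted p = 0.64). In complex III, which hands electrons to cytochrome c, none of 8 subunits was called and none had an unadjusted p below 0.05. Their values were all above 0, from 0.03 for uqcrq to 0.59 for uqcrh, with a median of 0.46. The haem and iron-sulphur subunits, cyc1 and uqcrfs1, were at 0.45 ± 0.34 and 0.46 ± 0.36.

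Complex V was divided by module. The c subunit gene atp5mc3a, whose product forms the rotating ring in the membrane, averaged 1739 normalized counts in control, 2070 in radiation, 4886 in induced torpor and 5136 in induced torpor+radiation. It was 2.81-fold higher in induced torpor than in control (1.49 ± 0.36 on the log2 scale, adjusted p = 0.00137). It was the single ATP synthase gene called of 12, where 6.14% of all genes tested, and 9.55% with a baseMean of at least 50, were called higher. The 4 genes of F1, the part that holds the catalytic head, were atp5fa1, atp5f1b, atp5f1c and atp5f1d. They had a median of −0.02 and lay between −0.38 and 0.04. These include the member with the most reads, atp5f1b (beta subunit, where ATP is made), with 31020 normalized counts in control, 37970 in radiation, 23870 in induced torpor and 31780 in induced torpor+radiation. Its value in induced torpor was −0.38 ± 0.34 (adjusted p = 0.58). The 4 genes of the peripheral stalk, which holds the head still against the ring, lay between 0.26 and 0.34, and none passed. The ring was read from 1 gene, and the difference between the ring and the F1 genes was not tested.

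Assembly factors had a higher median than subunits in induced torpor, 0.67 over 10 factors against 0.45 over 73 subunits. Called higher were 2 of 10 factors and 13 of 73 subunits. This difference between factors and subunits was not tested. The share called higher was 6.14% over all genes tested and 9.55% over those with a baseMean of at least 50. The sdhaf4 gene, whose product helps the flavin subunit of complex II to mature, averaged 125 normalized counts in control, 144 in radiation, 363.5 in induced torpor and 349.8 in induced torpor+radiation. The lower of the torpor means was above both means at 28.5 °C. Its increase in induced torpor, 1.54 ± 0.28 (adjusted p = 1.04e-05), had the smallest p of all members. The ndufaf2 gene, a complex I factor with few reads, averaged 21.2 normalized counts in control, 44.6 in radiation, 64.5 in induced torpor and 55.7 in induced torpor+radiation. It rose by 1.61 ± 0.58 in induced torpor (adjusted p = 0.0621), and its control mean was the lowest of the 4 groups. The lowest factor was ndufaf3 at −0.80 ± 0.43 (adjusted p = 0.28).

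Assembly factors with other names, listed by complex apart from the name rule, were read in the same table. Of 31 tested, 9 were higher in induced torpor and none was lower, with a median of 0.93. Over all genes tested 6.14% were called higher, and 9.55% of those with a baseMean of at least 50. In induced torpor+radiation versus radiation, 7 of 27 such factors were higher and none was lower, with a median of 0.45. There 9.15% of all genes were called higher. Of the 16 that act on complex IV, 7 were higher in induced torpor, with a median of 1.1. They were higd1a (2.46 ± 0.41, adjusted p = 5.42e-07), surf1, coa7, pet100, cox11, coa3a and cox19. The surf1 gene, which acts early in the assembly of the oxidase, averaged 118 normalized counts in control, 120.3 in radiation, 469.7 in induced torpor and 442 in induced torpor+radiation, an increase of 1.99 ± 0.37 in induced torpor (adjusted p = 8.67e-06). In complex III, ttc19 rose by 1.58 ± 0.35 (adjusted p = 0.000435), and in complex I, foxred1 by 1.19 ± 0.42 (adjusted p = 0.0599). Taking the factors of the name rule and of these lists as 1 group, 11 of 41 were higher and the median was 0.88. The lists were written with earlier results of these data known.

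Induced torpor+radiation versus control included the one-to-one members only. Of 55 tested, 13 were higher and none was lower, where 9.09% of all 6908 genes tested were called higher and 6.43% lower, and the median was 0.40. The members have more reads than most genes, so 9.09% is not a share matched for coverage. The share among genes with a baseMean of at least 50 is not given for this comparison or against radiation. The 13 were ndufa5, ndufa6, ndufb9, ndufb10, ndufs6 and ndufv3 of complex I, sdhc of complex II, cox4i1 and cox7c of complex IV, atp5mc3a of complex V, and the factors sdhaf4, ndufaf5 and ndufaf2. None of the 7 complex III subunits was called. The increases with the smallest p were those of sdhaf4 (1.48 ± 0.26, adjusted p = 2.36e-06), atp5mc3a (1.56 ± 0.32, adjusted p = 0.000102) and ndufa5 (0.90 ± 0.25, adjusted p = 0.00831). The cox7c gene, a small subunit of the oxidase, averaged 1969 normalized counts in control, 1819 in radiation, 3037 in induced torpor and 3768 in induced torpor+radiation, where its increase was 0.94 ± 0.30 (adjusted p = 0.0251). Of 9 assembly factors 3 were higher, with a median of 0.80, and of 45 subunits 10 were higher, with a median of 0.40. Here the median over all genes above a baseMean of 50 was 0.15. Centred on that value, the median of the members was 0.25, 6 members were higher, and the split over all genes moved from 628 higher and 444 lower to 376 higher and 593 lower. With the t distribution none passed.

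**Figure D3:**
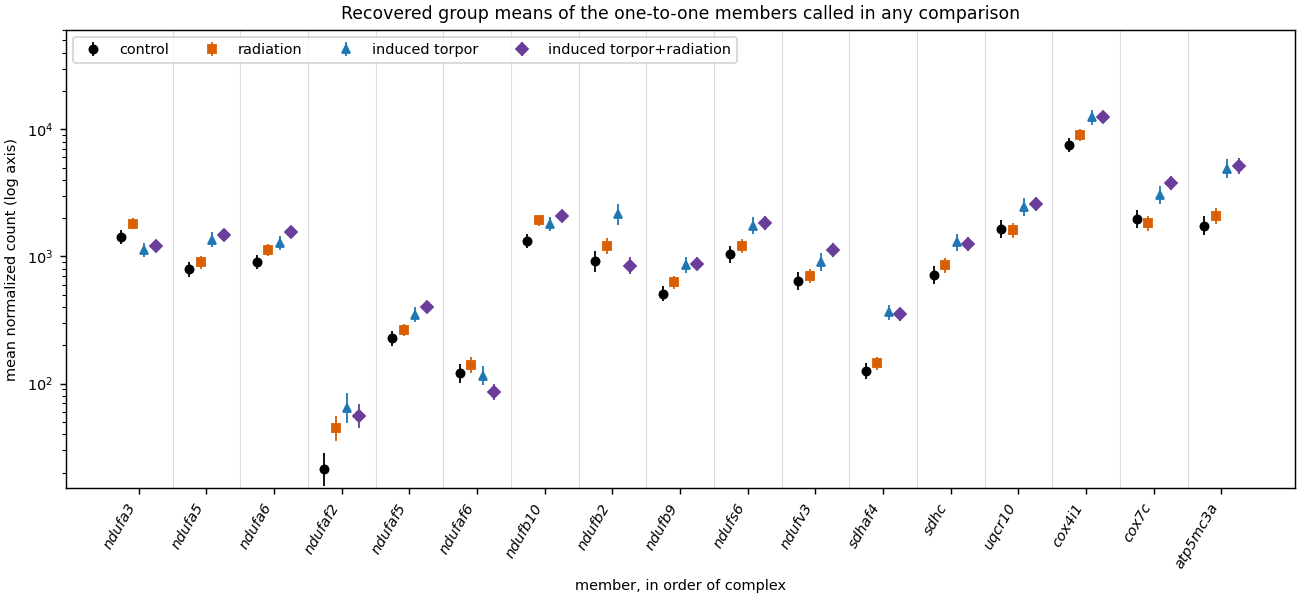
Recovered mean normalized count (y axis, log scale) of the 17 one-to-one members called in any comparison, in each of the 4 groups, with bars of 1 model standard error of the log2 mean. For most of these genes both torpor groups stand above control and radiation, as for atp5mc3a (4886 and 5136 against 1739 and 2070). Since the genes were plotted because they were called, this order partly follows from the choice and does not describe all members. ndufb2 is high in induced torpor alone, at 2146, and ndufa3 and ndufaf6 are highest in radiation.

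Induced torpor+radiation versus radiation measured the torpor difference within irradiated fish, and it shares no fish with induced torpor versus control. The letters of the fish codes are unbalanced here too, with 2 M and 1 F against 3 F. Of 55 members, 7 were higher and 2 were lower, where 9.15% and 6.98% of 6504 genes were called. The median was 0.15, with 39 of 55 above 0. The 7 were sdhaf4 (1.28 ± 0.23, adjusted p = 3.71e-06), atp5mc3a (1.31 ± 0.29, adjusted p = 0.000270), cox7c (1.05 ± 0.27, adjusted p = 0.00249), ndufa5 (0.72 ± 0.23, adjusted p = 0.0192), ndufaf5, uqcr10 and ndufv3. The uqcr10 gene, a small subunit of complex III, averaged 1644 normalized counts in control, 1599 in radiation, 2451 in induced torpor and 2572 in induced torpor+radiation, and it was the only complex III subunit called in any of the comparisons made. The members that fell were ndufa3, a membrane arm subunit of complex I (by 0.59 on the log2 scale, adjusted p = 0.0501), and the complex I factor ndufaf6 (by 0.71 on the log2 scale, adjusted p = 0.0952). Both were highest in radiation: ndufa3 averaged 1426, 1810, 1120 and 1199 normalized counts in control, radiation, induced torpor and induced torpor+radiation, and ndufaf6 120.1, 140.5, 115 and 86.1. The share of members called was 7 of 55 higher, which is not far from the share over all genes. With fold changes centred on the median gene, 4 members were higher and 2 lower, with a median of 0.10, and with the t distribution none passed. In the same comparison the leukocyte marker lcp1 fell by 1.01 on the log2 scale (SE 0.32, adjusted p = 0.0198). Another leukocyte marker, mpx, was not called (−0.32 ± 0.95, adjusted p = 0.88). Of 3 slow fibre markers, prox1a fell by 1.89 on the log2 scale (SE 0.49, adjusted p = 0.00317). The others did not pass: mybpc1 was at −0.58 ± 0.37 (adjusted p = 0.33) and mb at 0.40 ± 0.50 (adjusted p = 0.68). The part of these markers in the values of the members was not tested.

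Of the 8 one-to-one members called higher in induced torpor versus control, 7 were also above 0 in this comparison, and 3 were called there: sdhaf4, atp5mc3a and ndufa5. These 3 are 37.5% of the 8 and 42.9% of the 7 called in irradiated fish. Over all one-to-one genes the same shares were 55.9% of 469 and 44.0% of 595. Across the 55 members, Pearson's r of both log2 fold changes was 0.67, and across 6504 one-to-one genes it was 0.57. These correlations are over genes, which are not independent replicates, and the points of each axis share the same libraries. Of the 55, 35 were above 0 in both and 5 below 0 in both.

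**Figure D4:**
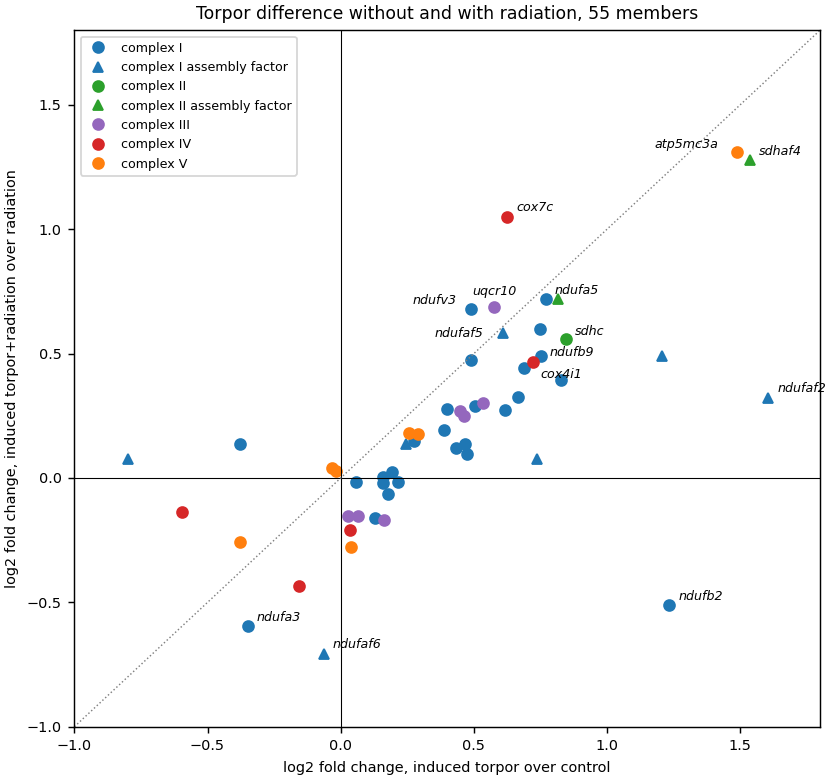
Log2 fold change of 55 one-to-one members in induced torpor over control (x axis) and in induced torpor+radiation over radiation (y axis), which share no fish; colours mark complexes, triangles assembly factors, the dotted line equal values, and genes called on either axis are named. atp5mc3a and sdhaf4 lie high on both axes, 35 points are above 0 on both, and ndufb2 is at 1.23 on the x axis and −0.51 on the y axis.

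Radiation alone moved no member past the threshold. In radiation versus control, none of 55 was called at an adjusted p of 0.4, the threshold used for this comparison, where 0.657% of 7616 genes were called higher and 1.30% lower. At an unadjusted p under 0.05 there were 2, both higher: ndufb10, a membrane arm subunit of complex I (0.54 ± 0.23, adjusted p = 0.56), and ndufaf2 (1.07 ± 0.54, adjusted p = 0.77). Even so, 51 of the 55 values were above 0, including all 26 complex I subunits and all 7 of complex V, with a median of 0.25. Over all genes with a baseMean of at least 10, 3620 of 6504 were above 0, and the median of genes with a baseMean of at least 50 was 0.11. Centred on that value, the median of the members was 0.14, and the split over all genes moved from 50 higher and 99 lower to 18 higher and 92 lower. All of these values rest on the same 2 control fish.

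Induced torpor+radiation versus induced torpor measured radiation within torpid fish. None of the 55 members was higher and 1 was lower, ndufb2, where 0.108% of 6504 genes were called higher and 0.108% lower. The median was 0.07. The ndufb2 gene encodes an accessory subunit of the membrane arm of complex I. It averaged 912 normalized counts in control, 1207 in radiation, 2146 in induced torpor and 847 in induced torpor+radiation, so that it was high in 1 group of 4. It fell by 1.34 on the log2 scale (SE 0.35, adjusted p = 0.0632). The next by p were ndufb3, another membrane arm subunit (0.57 ± 0.28), and ndufaf3 (0.75 ± 0.39), neither of which passed (adjusted p = 0.9997 for both).

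The radiation by torpor interaction tested whether the torpor difference itself differed between irradiated and unirradiated fish. Of the 55 members, 46 were below 0, with a median of −0.21. Over all 6504 genes, 3354 were below 0 and the median was −0.022. This difference in direction was not tested, and all of these values share the 2 control fish. The ndufb2 gene was the single member called, at −1.75 ± 0.50 (adjusted p = 0.0920), where 0.154% of 6504 genes were called lower. It was no longer called when fold changes were centred (smallest adjusted p of a member 0.14). The next by p were ndufaf2 (−1.28 ± 0.74, unadjusted p = 0.081) and ndufaf3 (0.87 ± 0.55, unadjusted p = 0.11). The ndufb2 value in induced torpor rests on 2 fish whose separate values are not in the tables used.

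Subunits encoded in the mitochondrial genome are not part of the name rule, but 11 of 13 are in the tables, and they complete complexes I, III, IV and V. In induced torpor, 3 of 11 were higher and none was lower: mt-nd1 (1.79 ± 0.36, adjusted p = 6.65e-05), mt-nd2 (0.90 ± 0.32, adjusted p = 0.0576) and mt-nd6 (1.15 ± 0.44, adjusted p = 0.0887), all of complex I. Over all genes tested 6.14% were called higher. The median of the 11 was 0.26. The catalytic subunits of complex IV, mt-co1, mt-co2 and mt-co3, were at 0.26, 0.58 and 0.18, and mt-atp6 of complex V at 0.03, with no call. In induced torpor+radiation, 4 of 11 were higher (mt-nd1, mt-nd2, mt-co2 and mt-co3) and the median was 0.79. There 9.09% of all genes tested were called higher, and the median over all genes with a baseMean of at least 10 was 0.09. Against radiation, mt-nd1 alone was called (1.26 ± 0.29, adjusted p = 0.000598). That is 1 of 11, near the 9.15% of all genes called higher there. The mt-nd1 means were 52080 normalized counts in control, 55690 in radiation, 179700 in induced torpor and 133400 in induced torpor+radiation, with both torpor groups above the others. Poly A capture was used, so these levels also depend on the tails of the mitochondrial transcripts.

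**Figure D5:**
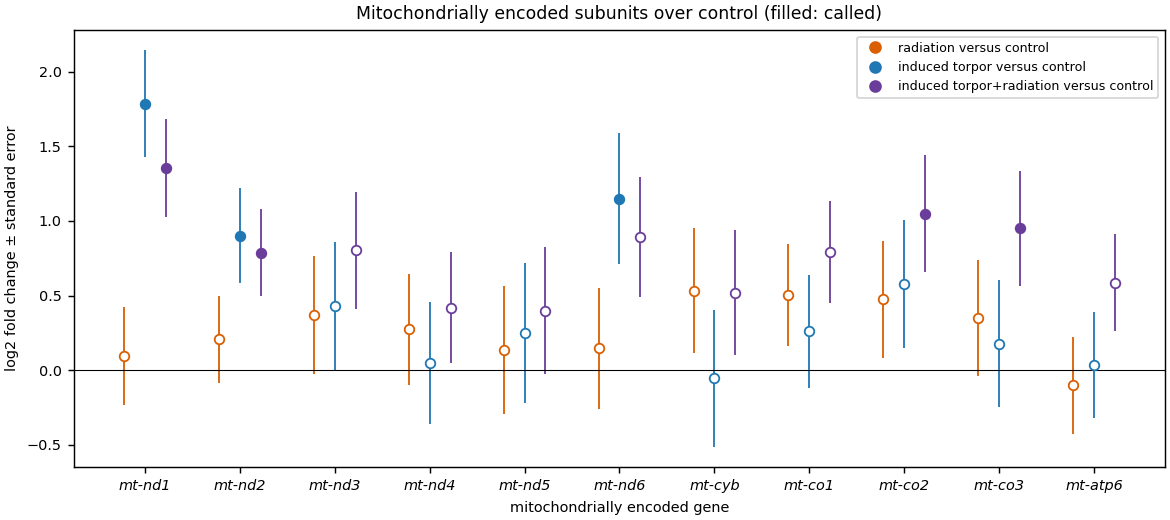
Log2 fold change over control (y axis) of 11 mitochondrially encoded subunits in radiation, induced torpor and induced torpor+radiation, with bars of 1 standard error; filled points were called. mt-nd1 is the highest in both torpor groups, at 1.79 and 1.36, and no radiation point is filled.

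Of 8 regulators of mitochondrial genes, 1 was higher in induced torpor and none was lower. Over all genes tested 6.14% were called higher, and 9.55% of those with a baseMean of at least 50, so 1 of 8 is not far from these shares. The median of the 8 was −0.12, with 4 above 0 and 4 below. The regulator called was tfam, which packs and transcribes mitochondrial DNA. It averaged 117 normalized counts in control, 150.1 in radiation, 209 in induced torpor and 222 in induced torpor+radiation. Its increase was 0.83 ± 0.29 in induced torpor (adjusted p = 0.0543) and 0.92 ± 0.27 in induced torpor+radiation (adjusted p = 0.0110). The coactivator ppargc1a was at −1.10 ± 0.74 in induced torpor (adjusted p = 0.42) and nrf1 at 0.46 ± 0.43 (adjusted p = 0.61). The others did not pass there either: yy1b was at −0.64 ± 0.42, gabpa at −0.54 ± 0.51, esrra at −0.41 ± 0.51, yy1a at 0.16 ± 0.33 and ppargc1b at 0.40 ± 0.38. In induced torpor+radiation versus control, esrra was at −1.06 ± 0.46 (adjusted p = 0.12).

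Some fibre markers also differed between the groups. Of 4 slow fibre markers in the induced torpor table, 2 were lower and none was higher: smyhc3 fell by 2.65 (SE 0.37, adjusted p = 9.69e-10) and mybpc1 by 1.73 (SE 0.45, adjusted p = 0.00451) on the log2 scale. Among all genes tested there, 4.82% were called lower and 6.14% higher. The myoglobin gene mb was at 0.66 ± 0.62, and prox1a, a transcription factor of slow fibres, at −1.01 ± 0.58 (adjusted p = 0.32). In induced torpor+radiation versus control, 2 of 3 were lower: prox1a fell by 1.98 (SE 0.55, adjusted p = 0.00642) and mybpc1 by 1.28 (SE 0.41, adjusted p = 0.0244) on the log2 scale. Among all genes tested in that comparison, 6.43% were called lower. The 3 slow markers with group means summed to 2950 normalized counts in control, 2450 in radiation, 2030 in induced torpor and 2350 in induced torpor+radiation. This sum leaves out smyhc3, which has no group means, and joins genes that differ in direction. In induced torpor+radiation mb averaged 1509 against 879 in control, whereas mybpc1 averaged 827 against 2002 and prox1a 16.9 against 67.0. Of 5 fast fibre markers tested, atp2a1 was higher (1.24 ± 0.45, adjusted p = 0.0681) and actn3b lower (−1.25 ± 0.38, adjusted p = 0.0223), and tnni2a.4 was at 0.79 ± 0.37 (adjusted p = 0.20). The others, mylpfa at −0.56 ± 0.46 (adjusted p = 0.54) and tnnt3b at −0.42 ± 0.30 (adjusted p = 0.47), did not pass. The median of the 5 was −0.42. The part of fibre makeup, and of the oocyte transcripts in control, in the values of the members was not tested.

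Genes that the tables pair with a human subunit but that carry another symbol were outside the rule, 10 in all with the COX7A2 copy above. The 1 past the threshold was ptcd1, paired with human PTCD1 and with the ATP5MF-PTCD1 readthrough, which rose by 1.77 ± 0.49 in induced torpor (adjusted p = 0.00792). The better covered of 2 genes paired with COX5B, a subunit of the oxidase, was at 1.19 ± 0.48 (adjusted p = 0.11), and the other at −0.94 ± 1.09 (adjusted p = 0.70). The 2 genes paired with ATP5PF, of the peripheral stalk, were at 0.51 ± 0.24 (adjusted p = 0.20) and −1.15 ± 0.86 (adjusted p = 0.49). A gene without a name paired with SDHB is listed at 0. NDUFB1 was at 0.02 ± 0.28, NDUFAF8 at 0.64 ± 0.57, and the NDUFA13 gene at −0.08 ± 0.30, none of which passed.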

How the data were processed

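The submitters' notes and methods name FastQC, cutadapt, STAR on GRCz11, HTSeq and DESeq2, with versions not given in the sources used here. As signal the authors deposited baseMean, a normalized count averaged over all fish. The authors' log2 columns hold fold changes over the control and standard errors, and each p-value they deposited comes from a Wald test, with a Benjamini-Hochberg adjustment. Each zebrafish gene was counted once (17373 genes in 22243 rows of the induced torpor table). Calls used an adjusted p of 0.1, and 0.4 for radiation versus control. Fish were grouped by their condition label.

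Group means were recovered from baseMean, the 3 fold changes and the group sizes, and dispersions from the standard errors under a negative binomial variance. The arithmetic of this recovery was tested on simulated data, and the calls of the recovered contrasts were scored there with dispersions taken as known. This cannot show how calls behave when dispersions are estimated from groups this small. Recalculated standard errors were 0.996, 1.00 and 0.999 times the deposited ones (medians over 6504 genes for radiation, induced torpor and induced torpor+radiation). The dispersions came from those same standard errors, so this closeness cannot show that the recovered contrasts hold for groups this small. Two-sided Wald tests of the recovered contrasts were adjusted over one-to-one genes with a baseMean of at least 10 (scipy 1.17.1). Alternatives were a t distribution with 6 degrees of freedom, centring on the median gene, other thresholds and baseMean limits, one-to-one genes only, and the largest dispersion. P-values rest on a dispersion fitted over all 4 groups together, not on the separate spread between the fish of the groups compared.

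The members, lists and tests were chosen with earlier results of these data known. Named are called members, the extremes of each complex, copies of one human gene, and the members nearest to a call in contrasts with few calls. For members named because they were called higher, torpor means above the other groups partly follow from this choice. Promoter and protein sequences were not used here.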

Additional observations from a re-analysis of the deposited data

Results flagged for a closer look

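The interaction of radiation and torpor was past the threshold for 1 member, ndufb2, an accessory subunit of complex I. The interaction was −1.75 on the log2 scale (SE 0.50, adjusted p = 0.0920 by the Wald test from the recovered DESeq2 values). The ndufb2 value was 1.23 ± 0.38 in induced torpor over control. In induced torpor+radiation over radiation it had the other sign and was not called (−0.51 ± 0.31, adjusted p = 0.31). The interaction did not pass when centred on the median gene (adjusted p = 0.14) or adjusted over genes with a baseMean of at least 50 (adjusted p = 0.12). Separate values of the 2 induced torpor fish were not analysed here, and whether 1 fish sets the mean of 2146 normalized counts was not tested. Groups of 2 or 3 fish are too small for a search for outlying samples.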

How the results depend on the processing

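No paired analysis was possible because the tables hold no values per fish, and for the same reason no fish could be left out in turn. With the t distribution with 6 degrees of freedom, the counts of members fell from 15 to 0 higher and from 1 to 0 lower in induced torpor, from 13 to 0 higher in induced torpor+radiation, from 7 to 0 higher and 2 to 0 lower against radiation, and from 1 to 0 lower against induced torpor and in the interaction. Centred on the median gene, 9 members were higher in induced torpor, 6 in induced torpor+radiation and 4 against radiation, and 0 were lower in the interaction. At an adjusted p of 0.05, 6 were higher in induced torpor, 4 higher and 0 lower against radiation, 0 lower against induced torpor and 0 in the interaction. Adjusted over genes with a baseMean of at least 50, 0 were lower in induced torpor, since ndufa4 is not among these genes, and 0 in the interaction. With one-to-one genes only, 8 were higher and 0 lower in induced torpor. The other counts stayed within 1.5 times. Centring moved the median log2 fold change from 0.25 to 0.14 in radiation, from 0.46 to 0.40 in induced torpor, from 0.40 to 0.25 in induced torpor+radiation, from 0.15 to 0.10 against radiation and from 0.07 to 0.05 against induced torpor. Of 40 calls of single members, centring kept 23 and ended 17, the higher baseMean ended 4, the t distribution ended all 40, and none changed direction. With the t distribution no gene at all stayed called, except 3 higher against radiation. That alternative therefore cannot tell the members from other genes. The largest dispersion changed no count of members.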
